A study of Mus musculus with 14 samples.

Results

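The constitutive proteasome subunits are the proteins that build the 2 main parts of the standard proteasome, the core particle and the regulatory cap, together with the chaperones that share their gene symbols. Members were chosen by name and not by value. They are the genes whose symbol is Psma, Psmb, Psmc or Psmd followed by a number, without the 3 interferon-inducible genes Psmb8, Psmb9 and Psmb10. Of 36 such genes in RefSeq, 33 had a probe named for them alone, out of 13661 genes named this way on the array. The core is represented by 15 of them (Psma and Psmb) and the cap by 18 (Psmc and Psmd). Psmb11, Psmd1 and Psmd11 had no such probe and are not analysed here. Psmc3ip, a meiotic recombination factor with a similar symbol, is no subunit and was left out. Each gene is given by its best-measured probe, and Psmc4, Psmd4 and Psmd9 had further probes.

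The proteasome degrades proteins that carry ubiquitin chains. Its core particle is a barrel of stacked rings, with outer alpha rings that gate the channel and inner beta rings that hold the proteolytic sites, and its cap recognises ubiquitin, removes it and unfolds the substrate with a ring of ATPases. The subunits are made in nearly all cells, and in mammals their genes are known to rise together when proteasome activity falls, through the transcription factor NFE2L1. Under interferon, Psmb8, Psmb9 and Psmb10 encode replacements for the constitutive catalytic subunits.

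Cultured mouse astrocytes of 3 groups were compared on spotted oligonucleotide arrays, to set the transcriptomes of cells that never had connexin43 (Cx43, encoded by Gja1) against those of cells in which it was knocked down. The null group held 4 samples of astrocytes labelled Cx43 null, with no allele or strain stated. The siRNA group held 4 samples of wild-type astrocytes transfected with 20 ug of a Cx43 siRNA construct, for 36 h per the design text, while protein was collected 48 h after transfection. The wild-type group held 6 untreated samples, and no sample received a control siRNA. The titles call the cells cortical astrocytes, whereas the protocol describes whole brain tissue from newborn pups, each cultured separately. Sex, strain and the age at RNA collection were not stated. The design text gives 4 independent cultures per group, which the labels do not tie to samples, and the wild-type group holds more samples than that. How much of the spread behind each p-value is between cultures is therefore unknown.

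The deposited values are log2 values centred on a median of 0 in every sample, so a level says how far a probe stood above the middle of its own sample, and the levels of different genes cannot be set against each other. Wild-type replicates 1, 2 and 5 stood apart. Over the 11 core members measured in all 11 other samples, the median was 4.78 to 5.09 in wild-type replicates 3, 4 and 6. In wild-type replicates 1 and 2 it was 2.71 and 2.89, over fewer of these members. Psma7 had no value in either of them, and Psmb6 had none in replicate 1. Wild-type replicate 5 had a value for 2 members only. These 3 samples were left out of the results below, except where stated. In the other 11, Gja1 was -1.17, -1.06, 2.82 and 3.03 in null replicates 1 to 4, 1.93, 2.14, 5.47 and 5.70 in siRNA replicates 1 to 4, and 6.08, 7.53 and 4.82 in wild-type replicates 3, 4 and 6. Gja1 fell in null against wild-type samples (-3.31 ± 0.58, SE, limma, adjusted p = 0.0408) and did not pass the test in siRNA against wild-type samples (-0.41 ± 0.58, adjusted p = 0.732). The null call held in 3 of 11 fits that left out 1 sample (adjusted p up to 0.232), and it was lost with all 14 samples (0.0812), with the arrays that consecutive samples may share as a random block (0.255) and without the replicate-set term described below (-5.21, adjusted p = 0.618). The siRNA difference was -2.31 without that term, -1.10 with the replicate number as a block, and 0.25 without wild-type replicate 4, and it passed in none of these. The design text states a 3.24-fold lower Cx43 mRNA and at least 70% less protein after siRNA. Of the 10 astrocyte markers, 5 had a value in all 11 samples. Aqp4 lay between 3.34 and 6.46, Glul between 5.24 and 8.06, Aldh1l1 between 1.98 and 4.60, Aldoc between -2.70 and 3.25 and Sox9 between 0.23 and 2.38, and the lowest Aldoc and Sox9 values were in siRNA replicate 1. Gfap had no value in the 11 samples and Slc1a3 had values in 4. In bulk samples, fewer cells of a type and less RNA per cell cannot be told apart.

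A second feature of the samples is the replicate number. Replicates 1 and 2 of the null and siRNA groups differed from replicates 3 and 4 across the whole array, and the labels do not say what sets them apart. The median over all 14243 probes measured in the 11 samples was 0.60 ± 0.15 in replicates 1 and 2 and 1.49 ± 0.12 in replicates 3 and 4 (SD, n = 4 each). The share of probes with a value moved with it, at 53.1% to 59% in replicates 1 and 2, 71.1% to 79.8% in replicates 3 and 4, and 61.8% to 79.1% in the wild-type samples used. Each sample is centred on its measured probes, and the part of this share in the differences was not tested. All wild-type samples used belong with the later numbers. Group differences were therefore fitted with the replicate set (1 and 2, or 3 and above) and the dye as covariates.

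Of the 33 members, 28 had a value in all 11 samples. Psma4 had 10, Psmd12 had 9, Psmb3 had 8 and Psma8 had 6, and Psmb4 had none, so that 32 were tested between groups. Psma8 encodes an alpha subunit known from the testis, and its values came only from replicates numbered 3 and above.

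Promoters of 26 members were found in a RefSeq table for GRCm38.p6. Their upstream 250 bases were searched on both strands for TGACNNNGC, the core of the antioxidant response element bound by NFE2L1 and NFE2L2, and for CCAAT. TGACNNNGC was present in 5 of 26 members (19.2%), 2 of the core and 3 of the cap, and in 14% of all 27025 genes of the table. CCAAT was present in 11 of 26 members (42.3%) and in 41.1% of all genes. The 5 stretches with TGACNNNGC are printed because these members are the catalytic subunits Psmb5 and Psmb6, the ATPase Psmc6, the lid subunit Psmd12 and the assembly chaperone Psmd9, which are described below. Each line runs 5′ to 3′ on the gene's strand, with the match in capitals, up to 30 bases before it and the bases after it within the upstream region. The Psmb5 stretch is chr14:54618004-54618072 on the minus strand, and its match starts 47 bases upstream of the start of the gene. The Psmb6 stretch is chr11:70525318-70525356 on the plus strand. Its match starts 9 bases upstream of the start used for its promoter, which lies inside the gene as listed (from 70525324). The Psmd9 stretch is chr5:123228129-123228189 on the plus strand (31 bases upstream). The Psmc6 stretch is chr14:45329574-45329635 on the plus strand (227 bases upstream), and the Psmd12 stretch is chr11:107479278-107479319 on the plus strand (247 bases upstream). In the last 2 the match lies on the opposite strand and is shown as its reverse complement.
Psmb5: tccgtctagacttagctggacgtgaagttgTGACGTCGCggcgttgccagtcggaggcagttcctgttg
Psmb6: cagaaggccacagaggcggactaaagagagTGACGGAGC
Psmd9: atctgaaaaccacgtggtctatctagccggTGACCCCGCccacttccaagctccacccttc
Psmc6: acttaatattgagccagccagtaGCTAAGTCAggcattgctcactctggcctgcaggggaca
Psmd12: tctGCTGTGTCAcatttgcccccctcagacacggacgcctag
A match describes these letters only, and binding was not measured.

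The median level of the core members in a sample was nearly the same in the 3 groups, before any term for the replicate set. By set it was 4.76 ± 0.06 in replicates 1 and 2 and 5.03 ± 0.08 in replicates 3 and 4 of null and siRNA samples (SD, n = 4 each). Fitted differences per gene are given below. The median over the 11 core members with complete values was 4.89 ± 0.15 in null samples (SD, n = 4), 4.90 ± 0.19 in siRNA samples (n = 4) and 4.98 ± 0.17 in wild-type samples (n = 3). The rings taken apart differed more. The alpha-ring median was 4.19 ± 0.75 in null, 4.59 ± 0.17 in siRNA and 4.08 ± 0.41 in wild-type samples. The beta-ring median was 5.15 ± 0.17, 5.55 ± 0.48 and 5.41 ± 0.62 in the same order. The median over the 17 cap members with complete values was 3.64 ± 0.68 in null samples, 4.08 ± 0.33 in siRNA samples and 3.80 ± 0.32 in wild-type samples. The null cap values differed by replicate number: they were 3.07 and 3.03 in null replicates 1 and 2, and 4.27 and 4.19 in null replicates 3 and 4. The ranges of the 3 groups overlapped for the core and for the cap.

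**Figure D1:**
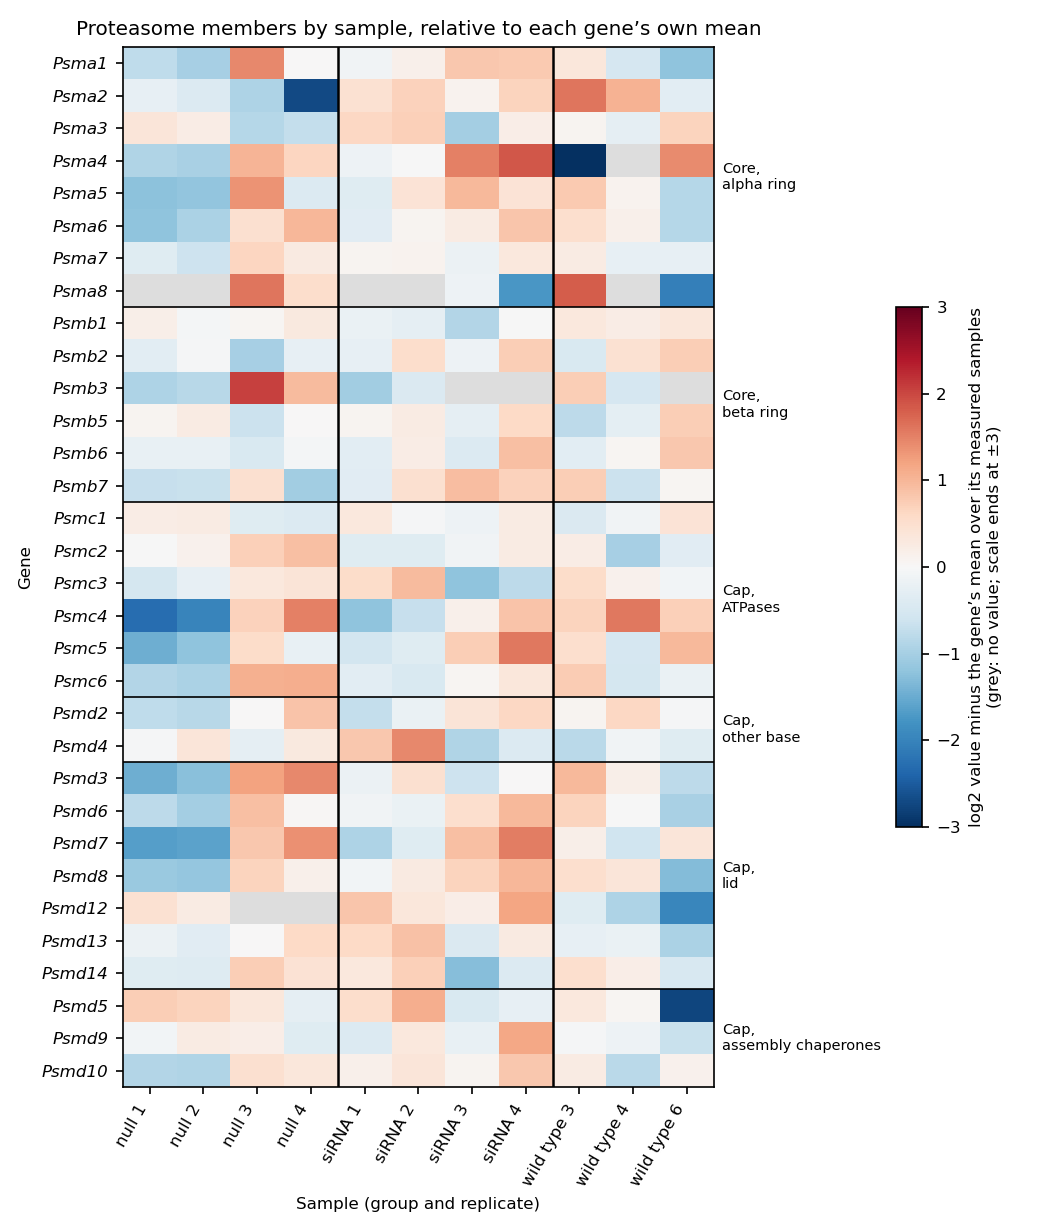
Each row is a gene with a value in at least 1 of the 11 samples, grouped by its place in the complex, and each column is a sample. Colour gives the log2 value minus the gene's own mean over its measured samples, and grey marks a missing value. Null replicates 1 and 2 form a mostly blue pair of columns in the alpha ring, the ATPases and the lid, while most of the beta ring stays pale in all samples.

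Some members varied very little. Psmc1, an ATPase of the cap, had the smallest standard deviation over the 11 samples (0.31), at percentile 0.73 of all probes measured in all 11. Psmb1, a beta subunit without a proteolytic site in mammals, had 0.36 (percentile 1.9), and the alpha subunit Psma7 had 0.36 (percentile 2.02). The catalytic subunits Psmb5 and Psmb6 both had 0.47 (percentiles 8.33 and 8.48). At the other end stood the ATPase Psmc4 (1.34, percentile 84.9), the alpha subunit Psma2 (1.15, percentile 76) and the lid subunit Psmd7 (1.12, percentile 73.7). These percentiles take in probes of all levels. By mean log2 value, Psmc1, Psmb1, Psma7, Psmb5 and Psmb6 stood at percentiles 93.8 to 97.2, and Psmc4, Psma2 and Psmd7 at 78 to 84.6. The median standard deviation was 0.47 over 5 beta-ring members, 0.78 over 6 alpha-ring members, 0.69 over 6 ATPases and 0.85 over all complete probes. It was 0.81 over the 2910 complete probes with a mean of at least 3.

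In siRNA against wild-type samples no member passed the test: 0 of 32 members had an adjusted p under 0.05 in limma, and 7.37% of all 20324 probes did. At an unadjusted p under 0.05 there were 5 of 32 members, against 23.4% of all probes. The fitted difference was positive for 25 of 32 members, against 56.6% of all probes. Its median was 0.31 over the core and 0.50 over the cap, beside 0.13 over all probes. The beta ring was nearest to 0 (median 0.17 over 6 members), the alpha ring had 0.61 (8 members), the ATPases 0.27 (6), and the lid 0.90 (7).

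The member with the smallest p in that comparison was Psmd7, the lid subunit that pairs with the deubiquitinase PSMD14. It was 2.53, 3.10, 4.36 and 4.99 in siRNA replicates 1 to 4, 1.81, 1.84, 4.27 and 4.82 in null replicates 1 to 4, and 3.64, 2.85 and 3.81 in wild-type replicates 3, 4 and 6. Both siRNA samples with later numbers lay above all wild-type samples, while the earlier ones overlapped with them or lay below. The difference was 1.50 ± 0.43 (siRNA minus wild type, SE, limma, adjusted p = 0.0557). It passed with the replicate number as a block (1.64, adjusted p = 0.0484), without wild-type replicate 6 (adjusted p = 0.0495), and in 3 further fits given in the closing section. It was 0.35 without the replicate-set term (adjusted p = 0.915), and with array pairs as a random block it had an adjusted p of 0.253. Within replicates 3 and above alone it was 1.28 (adjusted p = 0.132).

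Psmd12, a lid scaffold subunit, was the member whose siRNA values all lay above the wild-type values. It was 3.23, 2.72, 2.58 and 3.56 in siRNA samples, 2.83 and 2.62 in null replicates 1 and 2 with no value in null replicates 3 and 4, and 2.02, 1.46 and 0.43 in wild-type replicates 3, 4 and 6. All siRNA values, and both null values, were higher than every wild-type value, a separation seen for 3.97% of all probes measured in every siRNA and wild-type sample. The difference of siRNA from wild-type samples was 1.72 ± 0.55 (adjusted p = 0.0897, limma) and did not pass the test. It lay between 0.85 and 2.47 in the 9 fits that left out 1 sample and could still estimate it.

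Psmb1 was the 1 member with all siRNA values below all wild-type values: 4.75, 4.69, 4.07 and 4.95 in siRNA samples, 5.14, 4.89, 5.02 and 5.25 in null samples, and 5.26, 5.17 and 5.28 in wild-type samples. Such a separation was present for 10.8% of all probes, and the fitted difference was -0.62 ± 0.37 (adjusted p = 0.354, limma). The alpha subunit Psma1 was 4.16, 4.42, 5.08 and 5.05 in siRNA samples, against 4.62, 3.76 and 3.06 in wild-type samples, with overlap and a difference of 1.37 ± 0.47 (adjusted p = 0.0977). Psma4, another alpha subunit, was 3.51, 3.65, 5.18 and 5.55 in siRNA samples, 2.77, 2.71, 4.69 and 4.31 in null samples, and -0.72 and 5.08 in wild-type replicates 3 and 6, with none in replicate 4. Its difference of siRNA from wild-type samples was 3.18 ± 1.10 (adjusted p = 0.106), and siRNA replicates 3 and 4 lay above both wild-type values, while the other siRNA and all null values lay between them. With the replicate number as a block, which leaves wild-type replicate 3 as the only wild-type sample with a partner, Psma4 passed at 6.08 (adjusted p = 0.000192), so that 2 members then passed where 9.97% of all probes did.

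In null against wild-type samples 0 of 32 members passed in limma, where 0.585% of all 20341 probes did. Unadjusted p was under 0.05 for 3 of 32 members, against 17% of all probes. The median difference was 0.06 over the core and 0.35 over the cap, beside 0.27 over all probes. Without the replicate-set term the medians were -0.11 and -0.05, and the cap median was 0.044 without wild-type replicate 6 and 0.70 without wild-type replicate 3. By position it was 0.41 over the alpha ring, -0.21 over the beta ring, -0.15 over the ATPases and 0.42 over the lid.

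Psma2, an alpha-ring subunit, had the smallest p in null against wild-type samples and in null against siRNA samples. It was 2.62, 2.47, 1.94 and 0.18 in null replicates 1 to 4, 3.34, 3.57, 2.99 and 3.55 in siRNA replicates 1 to 4, and 4.49, 3.91 and 2.56 in wild-type replicates 3, 4 and 6. Every null value lay below every siRNA value, and null replicate 1 alone lay above the lowest wild-type value. A full separation of null below siRNA was found for 3.14% of all probes measured in every sample of both groups. The difference was -2.35 ± 0.58 for null minus wild type (SE, limma, adjusted p = 0.0740) and -1.56 ± 0.48 for null minus siRNA (adjusted p = 0.0780), and neither passed. Both passed with the replicate number as a block (-2.81, adjusted p = 0.0276, and -1.56, adjusted p = 0.0364), within replicates 3 and above (-2.74, adjusted p = 0.0177, and -2.21, adjusted p = 0.0406, as the 1 member called where 4.58% and 9.88% of all probes were) and without wild-type replicate 6 (adjusted p = 0.0416 and 0.0432). With the arrays that may be shared by consecutive samples as a random block, the adjusted p was 0.350 and 0.316. The 2 comparisons share the null samples.

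Psmc2, a cap ATPase, was 5.49, 5.62, 6.21 and 6.42 in null samples, 5.15, 5.14, 5.39 and 5.75 in siRNA samples, and 5.73, 4.50 and 5.16 in wild-type samples. Its null values overlapped with both other groups, and the difference of null from wild-type samples was 1.09 ± 0.41 (adjusted p = 0.196, limma). Psmb3, a beta subunit outside the catalytic set, was -2.02, -1.92, 0.95 and -0.16 in null samples, -2.13 and -1.54 in siRNA replicates 1 and 2, and -0.36 and -1.61 in wild-type replicates 3 and 4, with a difference of 1.38 ± 0.58 for null minus wild type (adjusted p = 0.270). For Psmd7 the difference of null from wild-type samples was 0.94 ± 0.43 (adjusted p = 0.294) and -0.21 without the replicate-set term, with plain means of 3.18 in null and 3.43 in wild-type samples. For Psma4 it was 2.32 ± 1.10 (adjusted p = 0.311). With the replicate number as a block, Psma4 passed here too (5.23, adjusted p = 0.00105), again with wild-type replicate 3 as the 1 paired wild-type sample, and 2 members passed where 1.93% of all probes did.

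Between null and siRNA samples 0 of 32 members passed, against 5.87% of all 20347 probes, and 4 of 32 had an unadjusted p under 0.05, against 24.8%. With the replicate number as a block 1 member, Psma2, passed where 11.1% of all probes did. The difference was negative for 24 of 32 members, while it was positive for 55.5% of all probes. Its median was -0.37 over the core and -0.20 over the cap, and 0.11 over all probes. Psma8 had the largest positive difference, from -0.94 and -2.01 in null replicates 3 and 4 against -2.70 and -4.28 in siRNA replicates 3 and 4 (2.01 ± 0.71, adjusted p = 0.131, limma). Its wild-type values of -0.73 and -4.60 spanned both pairs. Psmc5, an ATPase, was 1.93, 2.19, 3.94 and 3.18 in null samples, against 2.84, 3.02, 4.13 and 4.98 in siRNA samples, and each null value lay below the siRNA value of the same number (-0.93 ± 0.39, adjusted p = 0.166). The labels do not pair samples by number, and the share of all probes with this order is not given here.

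**Figure D2:**
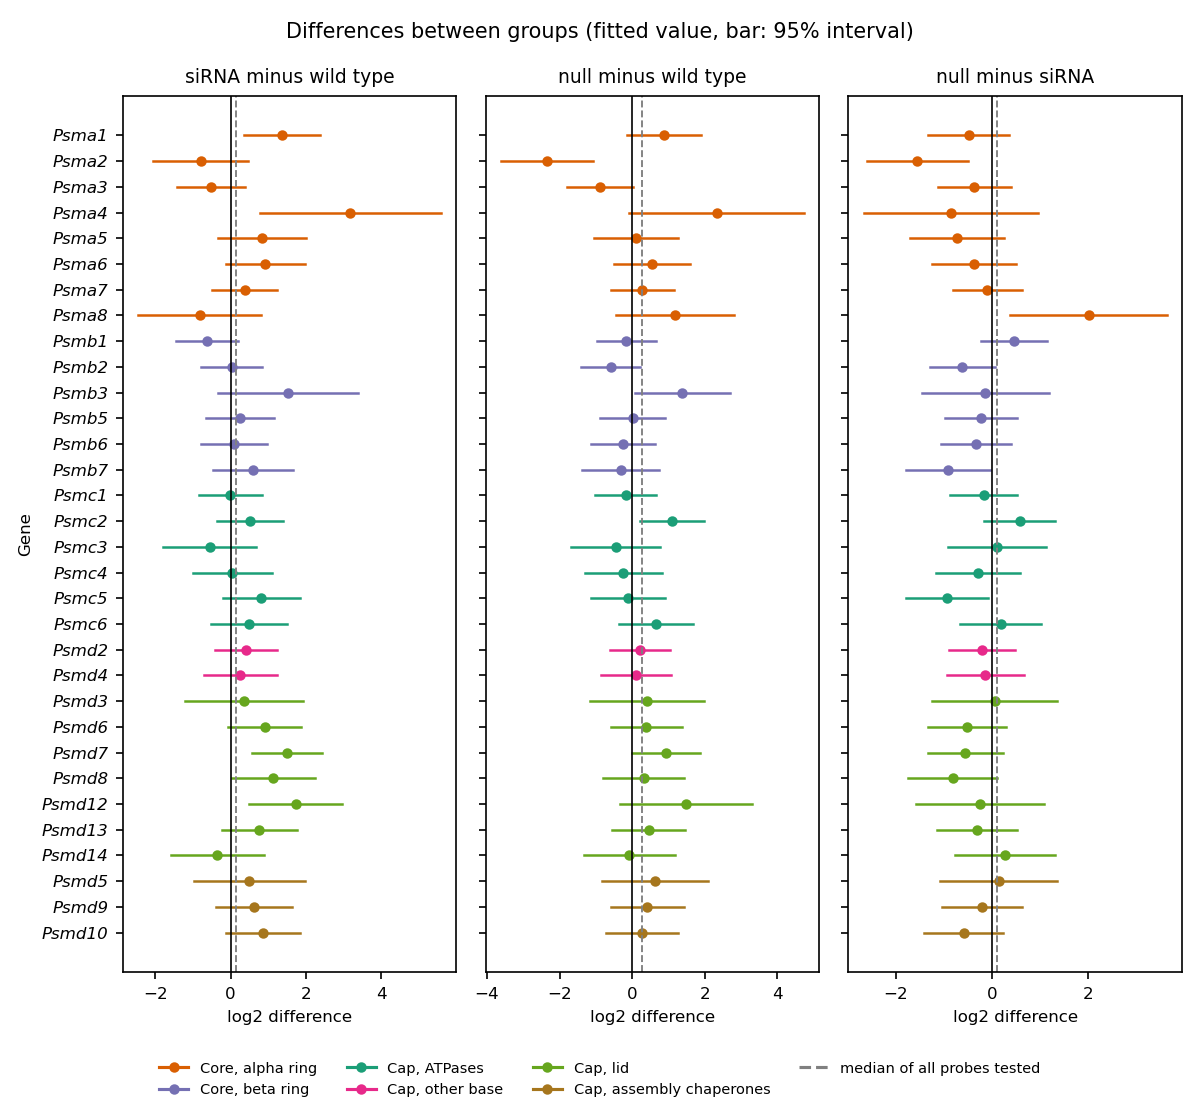
Fitted log2 differences for the 32 tested members in 3 comparisons, coloured by place in the complex, with 95% intervals as bars and the median of all probes as a dashed line. All members are uncalled in all 3 panels. Psma2 lies farthest to the left in the panels for null minus wild type (-2.35) and null minus siRNA (-1.56), and Psma4 has the widest intervals.

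Of the 3 catalytic subunits, Psmb5 and Psmb6 were among the members that varied least. Psmb5, which carries the chymotrypsin-like site, was 5.63, 5.80, 4.92 and 5.58 in null samples, 5.64, 5.81, 5.28 and 6.15 in siRNA samples, and 4.78, 5.27 and 6.29 in wild-type samples. Psmb6, with the caspase-like site, was 5.50, 5.50, 5.27 and 5.65 in null samples, 5.40, 5.94, 5.30 and 6.63 in siRNA samples, and 5.39, 5.78 and 6.53 in wild-type samples. The groups overlapped for both genes. For Psmb5 the difference was 0.02 for null minus wild type (95% interval -0.88 to 0.91) and 0.25 for siRNA minus wild type (-0.64 to 1.15), and for Psmb6 it was -0.25 (-1.13 to 0.62) and 0.09 (-0.79 to 0.96).

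Psmb7, with the trypsin-like site, was 3.21, 3.24, 4.39 and 2.86 in null samples, 3.55, 4.38, 4.82 and 4.59 in siRNA samples, and 4.64, 3.25 and 3.96 in wild-type samples. Each null value lay below the siRNA value of the same number, a pairing that the labels do not state. The difference of null from siRNA samples was -0.91 ± 0.40 (adjusted p = 0.186, limma) and did not pass. Psmd14, the lid deubiquitinase that removes ubiquitin chains before degradation, was 3.95, 3.92, 5.03 and 4.73 in null samples, 4.62, 5.01, 3.03 and 3.88 in siRNA samples, and 4.81, 4.51 and 3.83 in wild-type samples. Its fitted differences were small (0.28 ± 0.48 for null minus siRNA, -0.07 ± 0.57 for null minus wild type, -0.35 ± 0.57 for siRNA minus wild type) and its null values were lower than its siRNA values in replicates 1 and 2 and higher in replicates 3 and 4.

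By their best-measured probes, 2 of the interferon-inducible counterparts could be tested between null and siRNA samples, and both were lower in null samples. Psmb8, the counterpart of Psmb5, was 3.44, 3.73, -0.14 and 0.25 in null samples, 3.86, 4.55, 4.67 and 6.09 in siRNA samples, and 1.63, 1.72 and 2.41 in wild-type samples. Psmb10, the counterpart of Psmb7, was 1.43, 1.79, -0.24 and -0.95 in null samples, 3.35, 3.53, 4.16 and 4.80 in siRNA samples, and 2.09, 1.68 and 2.63 in wild-type samples. All siRNA values of both genes were higher than all null and all wild-type values. Among probes measured in every sample of the groups compared, 3.97% had siRNA fully above wild type and 3.14% had null fully below siRNA. Neither gene passed the test in siRNA against wild-type samples (differences between 1.55 and 2.39, adjusted p between 0.130 and 0.199, limma). Null minus siRNA was -2.97 ± 0.75 for Psmb8 (adjusted p = 0.0391, limma) and -3.45 ± 0.58 for Psmb10 (adjusted p = 0.00723), and Psmb8 lost its call in 6 of the 11 fits that left out 1 sample. With array pairs as a random block the adjusted p was 0.126 for Psmb8 and 0.0339 for Psmb10, and without the replicate-set term it was 0.227 and 0.0599. Psmb9, the counterpart of Psmb6, was 0.78, 0.75, 0.72 and -0.11 in null samples and 1.77, 1.67, 2.45 and 2.75 in siRNA samples. Its best-measured probe had 1 wild-type value (0.10), too few for the fit. A further Psmb9 probe had enough values, and its fit is not given here. It was -0.96, -0.95, -2.26 and -2.26 in null samples, 0.15 and 0.48 in siRNA replicates 1 and 2, and -1.77, -1.25 and -1.34 in wild-type samples.

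Counterpart and constitutive subunit were also set against each other as a log2 difference within each sample, a measure chosen after the values had been seen and given as a description. Null minus siRNA was -2.74 for Psmb8 less Psmb5, -1.29 for Psmb9 less Psmb6 and -2.54 for Psmb10 less Psmb7. For each, all 4 null samples lay below all 4 siRNA samples.

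**Figure D3:**
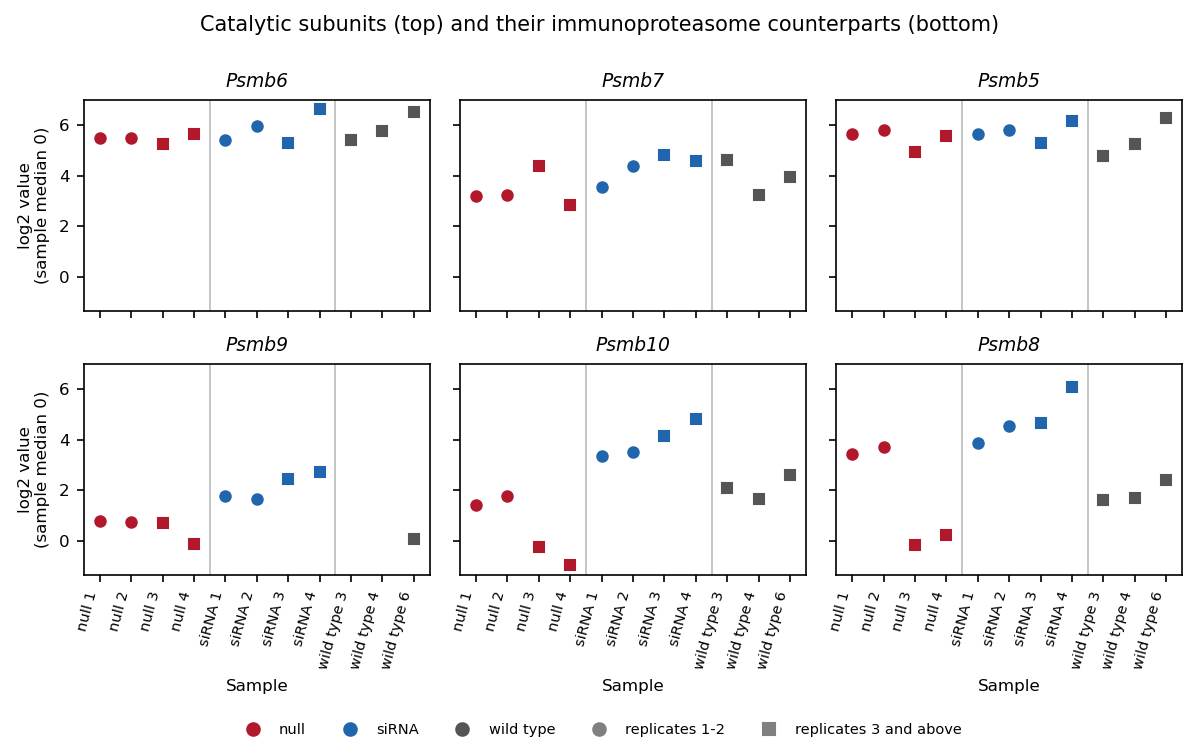
The log2 value in each of the 11 samples for the catalytic subunits Psmb6, Psmb7 and Psmb5 (top) and for Psmb9, Psmb10 and Psmb8 (bottom), with circles for replicates 1 and 2 and squares for later replicates. Psmb5 and Psmb6 lie between 4.78 and 6.63 in all samples, whereas Psmb8 and Psmb10 are lowest in null replicates 3 and 4 and highest in siRNA replicates 3 and 4.

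More members passed the test by replicate number than between groups. In replicates 1 and 2 minus 3 and 4 of the null and siRNA groups, 13 of 31 members passed the test, 11 lower and 2 higher, where 44.7% of all 18479 probes passed, 39.1% lower and 5.62% higher. The members' share is near that of all probes, and their median of -0.57 lies beside -0.78 over all probes. With quantile normalization 7 members passed, 5 lower and 2 higher, where 45.8% of all probes did, and the median was -0.14 over the members and -0.68 over all probes. Without 1 sample the count of members was 4 (null replicate 1), 6 (null replicate 2), 5 (null replicate 3), 8 (null replicate 4), 6 (siRNA replicate 1) or 7 (siRNA replicate 4), and 10 to 14 without any other sample. By position, 3 of 7 alpha-ring members were lower and 1 higher, 1 of 6 beta-ring members was lower, and 3 of 6 ATPases, 3 of 7 lid members and 1 of the 2 other base subunits were lower.

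Psmd7 and Psmc4 differed most clearly by replicate number. The difference for Psmd7, whose values are given above, was -2.29 ± 0.36 (adjusted p = 0.000327, limma). Psmc4, an ATPase, was 1.27, 1.56, 2.34 and 2.85 in replicates 1 and 2 of null and siRNA samples, against 4.23, 5.06, 3.69 and 4.40 in replicates 3 and 4 (-2.34 ± 0.40, adjusted p = 0.000606). A second Psmc4 probe was 1.45, 1.49, 2.62 and 2.92 in the earlier samples, against 3.38, 2.62, 0.90 and 0.74 in the later ones, and did not pass the test (0.21 ± 0.59), so the probes of Psmc4 disagree. Psmb3 (-2.37 ± 0.58, adjusted p = 0.00944), Psmc5 (-1.56 ± 0.39, adjusted p = 0.00667) and the ATPase Psmc6 (-1.28 ± 0.39, adjusted p = 0.0180) were lower too. Psmd2, a base scaffold that docks shuttle proteins, differed by -1.09 ± 0.32 (adjusted p = 0.0143). The further lower members were Psma1, Psma5, Psma6, Psmd6 and Psmd8, between -1.24 and -1.14, with adjusted p between 0.0253 and 0.0489.

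The alpha subunit Psma3 and the ubiquitin receptor Psmd4 went the other way. Psma3 was 4.35, 4.21, 4.61 and 4.71 in replicates 1 and 2 of null and siRNA samples, against 3.14, 3.28, 2.96 and 4.18 in replicates 3 and 4 (1.08 ± 0.35, adjusted p = 0.0246). Psmd4 was 3.22, 3.60, 4.06 and 4.69 in the earlier samples, against 2.98, 3.55, 2.33 and 2.83 in the later ones (0.97 ± 0.37, adjusted p = 0.0491), with overlap, and its second probe ran the other way (-0.70 ± 0.29, adjusted p = 0.0638). Psmd9, a chaperone of cap assembly, was 2.27, 2.60, 2.54 and 1.99 in null samples, 1.93, 2.65, 2.13 and 3.51 in siRNA samples, and 2.32, 2.19 and 1.69 in wild-type samples, with -0.18 ± 0.39 (adjusted p = 0.731) by replicate set. Its second probe was lower in the earlier replicates (-1.35 ± 0.31, adjusted p = 0.00408), so its probes disagree too. With arrays that consecutive samples may share as a random block, 3 members passed, where 28.9% of all probes did.

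**Figure D4:**
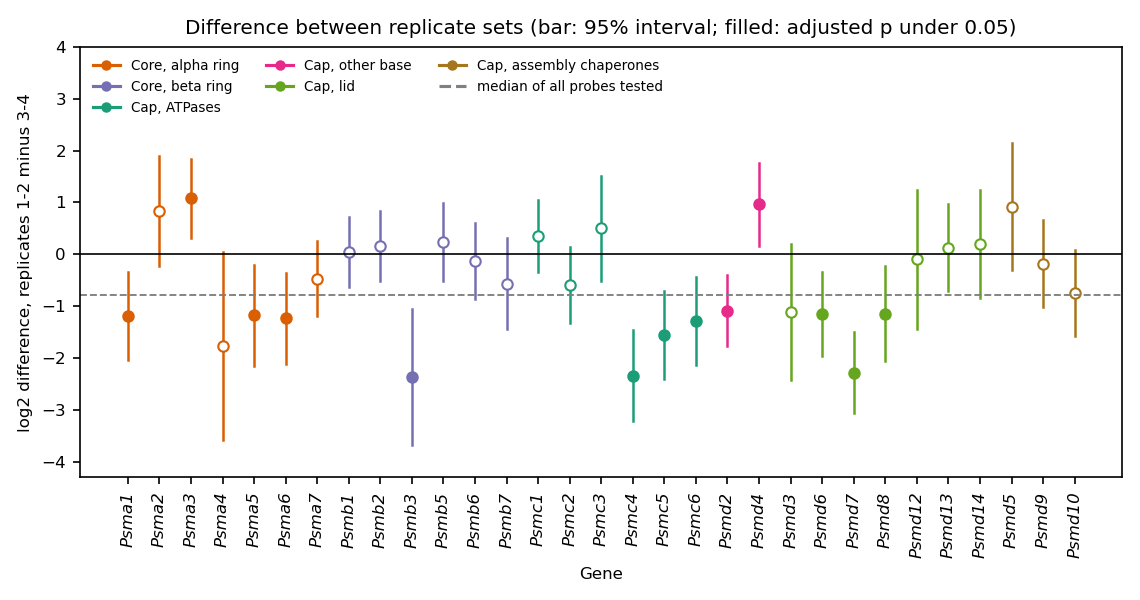
Fitted log2 differences of replicates 1 and 2 minus 3 and 4 for 31 members, with 95% intervals, filled where the adjusted p was under 0.05, and the median of all probes (-0.78) as a dashed line. Beta-ring members other than Psmb3 lie between -0.57 and 0.24, while Psmc4, Psmd7 and Psmb3 lie lowest.

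Null and siRNA samples were also set against each other within each replicate set. In replicates 1 and 2, 27 of 31 members had a lower mean in null samples, against 55.2% of all 16266 probes. For 21 members both null values lay below both siRNA values, where 38.1% of all probes did. For 2 members, Psmb1 and Psmc2, both null values lay above, where 28.9% of all probes did. The median difference was -0.75 over the members and -0.10 over all probes, with -0.91 over 7 alpha-ring members, all of them lower, and -0.15 over 6 beta-ring members. A fit of these 4 samples, with 1 residual degree of freedom per probe, gave every probe the same standard error (0.236). Its 19 lower members of 31, where 28.5% of all probes were lower, therefore mark a size of difference only and are no test against each gene's own spread. Null replicates 1 and 2 differed by a median of 0.15 over the members, the smallest of the 5 pairs of consecutive samples compared. No label states whether consecutive samples share an array.

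In replicates 3 and 4 fewer members lay lower in null samples. Both null values lay below both siRNA values for 6 of 30 members, where 20.3% of all 20163 probes did, and above for 8, where 40.5% did. The median was -0.06 over the members and 0.29 over all probes, with 0.38 over 17 cap members and -0.36 over 13 core members.

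The change of the null-to-siRNA difference between the sets was then fitted as an interaction, chosen after the values had been seen. It passed for 1 of 29 members, Psmc3, where 3.13% of all 16381 probes passed. Psmc3, an ATPase of the cap, was 3.07 and 3.35 in null replicates 1 and 2, against 4.14 and 4.54 in siRNA replicates 1 and 2. It was 3.91 and 3.98 in null replicates 3 and 4, against 2.40 and 2.81 in siRNA replicates 3 and 4, with 4.15, 3.72 and 3.52 in wild-type samples. The null-to-siRNA difference was thus -1.12 in the earlier and 1.34 in the later replicates, and the interaction was 2.47 ± 0.58 (limma, adjusted p = 0.0489). It passed in 2 of 11 fits that left out 1 sample (adjusted p from 0.0177 to 0.232).

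Psmd3, a lid subunit, had the same order of values without passing: 1.69 and 1.92 in null replicates 1 and 2 against 2.99 and 3.65 in siRNA replicates 1 and 2, and 4.36 and 4.61 in null replicates 3 and 4 against 2.55 and 3.18 in siRNA replicates 3 and 4 (interaction 3.13 ± 0.80, adjusted p = 0.0643, limma). For Psmd14, whose values are given above, it was 2.31 ± 0.67 (adjusted p = 0.100). Psmc4 had 1.78 ± 0.59 (adjusted p = 0.141) by its best-measured probe and 3.48 ± 0.60 (adjusted p = 0.0128) by the second one. The median interaction was 0.86 over 17 cap members, -0.0019 over 12 core members and 0.31 over all probes. Markers of other cells moved in the same comparison: the mean log2 value of 5 microglial markers was 3.97 and 4.18 in null replicates 1 and 2 against 1.09 and 1.46 in siRNA replicates 1 and 2, and 1.49 and 2.61 in null replicates 3 and 4 against 0.68 and 1.46 in siRNA replicates 3 and 4. The microglial marker Ly86 had an interaction of -3.95 ± 0.77 (adjusted p = 0.0230), opposite in sign to that of 14 of 17 cap members. Of all probes, 61% had a positive interaction, and the part of Ly86 in the members' values was not tested.

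**Figure D5:**
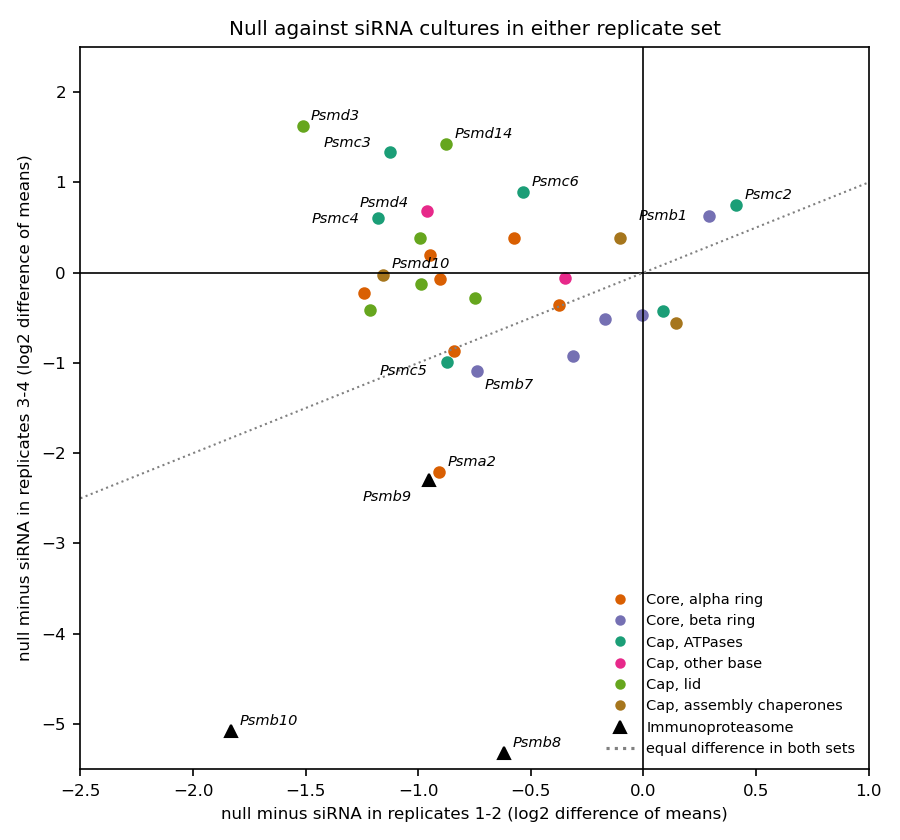
Null minus siRNA (log2 difference of means) in replicates 1 and 2 on the x axis and in replicates 3 and 4 on the y axis, for members measured in both sets (circles) and the immunoproteasome genes (triangles). Most members lie left of 0, and Psmd3, Psmd14 and Psmc3 lie at the upper left (-1.51 and 1.62 for Psmd3), while Psmb8 and Psmb10 lie far below all members.

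Marker levels also differed between the groups as a whole. Of all probes, 7.37% passed in siRNA against wild-type samples and 5.87% in null against siRNA samples, in either direction. The mean of the 5 microglial markers ranged from 1.49 to 4.18 in null samples, from 0.68 to 1.46 in siRNA samples and from 2.89 to 3.55 in wild-type samples, 4 of 5 fell in siRNA against wild-type samples (Aif1, Laptm5, Ly86 and Tyrobp), and 3 of 5 were higher in null than in siRNA samples. The mean of 3 fibroblast and mural markers ranged from -1.84 to 1.21 in null samples, from -1.63 to -0.07 in siRNA samples and from 0.74 to 3.08 in wild-type samples, and 2 of 5 tested fell in siRNA against wild-type samples (Col3a1 and Dcn). The mean of 5 astrocyte markers was 3.38 to 4.06 in null, 1.72 to 3.65 in siRNA and 3.58 to 4.08 in wild-type samples. Of 8 astrocyte markers tested, Aldh1l1 rose and Aldoc fell in siRNA against wild-type samples, and Aldoc and Sox9 were higher in null than in siRNA samples. Among 5 oligodendrocyte and 4 neuronal markers tested, 0 and 1 fell in siRNA against wild-type samples, and 1 and 0 were higher in null than in siRNA samples. The part of all these markers in the members' values was not tested.

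Some proteins that work with the constitutive subunits passed the test between groups. Of 6 activators and further cap proteins tested, 1 passed in null against siRNA samples, where 5.87% of all probes did: the proteasome-bound deubiquitinase Usp14. It was -0.38, -0.52, 3.50 and 2.94 in null samples, 0.83, 1.01, 4.17 and 4.41 in siRNA samples, and 3.09, 3.31 and 3.95 in wild-type samples. Each null value lay below the siRNA value of the same number, a pairing that the labels do not state. The difference of null from siRNA samples was -1.22 ± 0.32 (adjusted p = 0.0468, limma). The call was lost in 9 of 11 fits that left out 1 sample and with array pairs as a random block (adjusted p = 0.253). Usp14 was also lower in replicates 1 and 2 than in 3 and 4 (-3.52 ± 0.32, adjusted p = 7.64e-06), a larger difference than in any tested member.

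Of 6 ubiquitin and shuttle genes tested, 1 passed in siRNA against wild-type samples, where 7.37% of all probes did. By replicate set 3 of the 6 were lower, where 39.1% of all probes were. Rad23b, a shuttle that carries ubiquitinated proteins to the cap, rose in siRNA samples. It was -0.50, 0.10, 2.14 and 2.06 in siRNA samples, -0.83, -1.67, 2.09 and 0.57 in null samples, and -0.02, -2.51 and -0.77 in wild-type samples. All siRNA values but that of replicate 1 exceeded all wild-type values (siRNA minus wild type 3.15 ± 0.56, adjusted p = 0.00856, limma), and 1 of 11 fits that left out 1 sample lost the call (without siRNA replicate 4, adjusted p = 0.0733). It was also lost without the replicate-set term (1.92, adjusted p = 0.515) and with array pairs as a random block (adjusted p = 0.0809). Ubqln1, another shuttle, was 1.57, 0.80, 4.34 and 4.33 in null samples, 2.03, 2.06, 0.00 and 0.21 in siRNA samples, and 3.54, 2.97 and 2.45 in wild-type samples. Its null values lay below the siRNA values in replicates 1 and 2 and far above them in replicates 3 and 4, and its interaction passed (5.09 ± 0.62, adjusted p = 0.00205).

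Of 5 regulators of proteasome gene expression tested, 1 passed in siRNA against wild-type samples, where 7.37% of all probes did. The transcription factor Nfe2l2 rose: it was 3.34, 3.77, 3.03 and 3.84 in siRNA samples, 3.42, 3.45, 3.25 and 3.23 in null samples, and 1.70, 1.53 and 2.65 in wild-type samples. All its siRNA values were higher than all wild-type values, as for 3.97% of all probes measured in every siRNA and wild-type sample. The difference was 1.52 ± 0.41 for siRNA minus wild type (adjusted p = 0.0425, limma) and 1.36 ± 0.41 for null minus wild type (adjusted p = 0.115). The siRNA call was lost in 10 of 11 fits that left out 1 sample and with array pairs as a random block (adjusted p = 0.224). Nfe2l1 itself was 3.38, 3.97, 3.92 and 3.95 in null samples, 2.84, 3.42, 4.28 and 5.03 in siRNA samples, and 4.16, 4.03 and 4.50 in wild-type samples. Its fitted differences from wild type, with the replicate-set term, were 0.09 ± 0.42 (null) and 0.18 ± 0.42 (siRNA). Its plain means ran the other way, at 3.80 in null, 3.89 in siRNA and 4.23 in wild-type samples. Of the 4 core assembly chaperones tested, 0 passed between groups, although Pomp, which helps the beta rings to form, was 5.10, 5.16, -2.53 and 2.15 in null samples, against 4.68 to 5.59 in siRNA samples and 5.34 to 5.71 in wild-type samples. Null replicates 1 and 2 lay close to the wild-type values of Pomp, and null replicates 3 and 4 lay far below them. The fitted difference of null from wild-type samples was -4.20 ± 1.18 (adjusted p = 0.100, limma). By replicate set 1 of the 4 chaperones was higher and 2 were lower, where 5.62% and 39.1% of all probes were.

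How the members varied together is given as a description over the 11 samples, which share their scaling. Across 28 members with complete values, the mean pairwise Pearson correlation was 0.17, and it was 0.17 over all 14243 complete probes. After group, replicate set and dye were taken out, it was 0.22 over the members and 0.17 over all complete probes. Over the 2910 complete probes with a mean of at least 3, it was 0.19 before this step and 0.13 after it. After the same step it was 0.35 within the alpha ring (6 members), 0.33 within the beta ring (5), 0.17 within the ATPases (6) and 0.46 within the other cap members (11).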

How the data were processed

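The authors deposited 1 log2 value per probe and sample, per the file headers and the labels; no source used here states how they were made from the scans. Every sample has a median of 0 over its probes, so a shift of a whole sample is not visible. Arrays have no depth, and precision is set by how many there are.

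The members and gene lists were chosen with earlier results of these data known. A member's probe was the one with most values in 11 samples (null 1 to 4, siRNA 1 to 4, wild type 3, 4 and 6), ties by the higher mean. All probes with at least 2 values per group and 2 residual degrees of freedom (1 in the fit of replicates 1 and 2 alone) were fitted with limma 3.58.1 (lmFit and eBayes, R 4.3.3), with group, dye and replicate set as terms. P-values are two-sided with Benjamini-Hochberg adjustment over all probes, called under 0.05. The fit was tested on simulated data. Lists, counts and motif searches were computed in Python 3.11.15. Promoters and gene positions come from RefSeq tables of GRCm38.p6.

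Values were given per sample for the called members (up to 8) or the 4 with the smallest p per comparison, the largest change, Psmb5, Psmb6, Psmb7 and Psmd14, and, of the other lists, up to 4 called genes with Psmb8, Psmb9, Psmb10, Nfe2l1 and Gja1. Psmb1, Psmc3, Psmd3, Psma3, Psmd4, Psmd9 and Pomp were added after their values were seen.

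Samples of the same number deviated together (r = 0.57 to 0.65 between null and siRNA, 0.12 to 0.39 with wild type, over 14243 probes), so the replicate number was also fitted as a block. This pairing comes from the values and not from the labels, and samples of different numbers in the same replicate set deviated together as well (r = 0.40 to 0.60). After the replicate set and dye were taken out, r between null and siRNA samples of the same number was -0.74 to -0.41. It was -0.90 to -0.51 for different numbers of the same set. Whether the number pairs samples beyond the replicate set was not tested. Alternatives were other covariates, array pairs as a random block, all 14 samples, quantile normalization, complete probes, gene means and each sample left out.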

Additional observations from a re-analysis of the deposited data

Results flagged for a closer look

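By its best-measured probe, Psmb9 had 1 null sample far from the others. Null replicate 4 was -0.11, against 0.72 for the nearest null sample, and this gap made up 0.927 of the range of the 4 null values. On a further probe, null replicates 3 and 4 were both -2.26, against -0.96 and -0.95 in null replicates 1 and 2. Among 66 groups of 4 samples examined in this way, 1 was marked, and chance marks about 1 in 20.

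For 4 genes of the lists the change in the null-to-siRNA difference between replicates 1 and 2 and replicates 3 and 4 passed the test. It was an interaction term, chosen after the values had been seen, with Benjamini-Hochberg adjustment over all probes (limma). Of 29 members tested 1 passed, Psmc3, where 3.13% of all 16381 probes did. The change was 2.47 ± 0.58 for Psmc3 (adjusted p = 0.0489), and it kept its call in 2 of 11 fits that left out 1 sample. It was 5.09 for the ubiquitin shuttle Ubqln1 (adjusted p = 0.0020) and -4.70 for the immunoproteasome gene Psmb8 (adjusted p = 0.0028), and both kept their call in 11 of 11 such fits. It was -3.25 for the immunoproteasome gene Psmb10 (adjusted p = 0.0279), which kept it in 4 of 11. What distinguishes the replicate sets was not tested.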

How the results depend on the processing

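In siRNA against wild-type samples 0 became 2 with the replicate block (Psmd7 and Psma4) and 1 (Psmd7 each time) with all 14 samples as deposited (2.28, adjusted p = 0.0253), with quantile normalization (1.46, adjusted p = 0.0447) and with complete probes only (1.50, adjusted p = 0.0448). In null against wild-type samples 0 became 2 with the replicate block (Psma2 and Psma4) and 1 within replicates 3 and above. Between null and siRNA samples 0 became 1 with the replicate block, 1 within replicates 3 and above and 19 within replicates 1 and 2, where Psmd14 turned to -0.88. That last fit gave every probe 1 standard error and is no test against a gene's own spread. For replicates 1 and 2 minus 3 and 4, 13 became 3 with array pairs as a random block and 7 with quantile normalization. The interaction, with 1 call, gave 2 with array pairs as a random block and 2 with quantile normalization.

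The core median moved in siRNA against wild-type samples to 0.12 without a replicate set term, 0.50 with the replicate block and 0.55 with all 14 samples. In null against wild-type samples it moved to 0.31 with all 14 samples and -0.16 with complete probes. Between null and siRNA samples it was -0.58 within replicates 1 and 2, where the cap median was -0.88, and the cap median was 0.38 within replicates 3 and above. By replicate set the core median was -0.039 with quantile normalization and -0.13 with complete probes. The causes were not tested.

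Leaving out each sample in turn gave 0 to 1 called members in each of the 3 group comparisons (1 without wild-type replicate 6 in all 3), 4 to 14 between replicate sets (4 without null replicate 1, 14 without wild-type replicate 6) and 0 to 3 for the interaction (3 without wild-type replicate 3 or 6). The core median then ranged from 0.056 to 0.61 for siRNA minus wild type, from -0.19 to 0.17 for null minus wild type, from -0.59 to -0.36 for null minus siRNA and from -0.58 to -0.13 between replicate sets. The cap median ranged from 0.41 to 0.95, from 0.044 to 0.70, from -0.36 to -0.06 and from -0.98 to -0.57 in the same order. The replicate block changed no other call than those named. Of 922 values of single genes under an alternative, 747 kept direction and side of the threshold, 128 lost the call and 16 gained it. A further 30 turned direction with no call in either fit, and 1 turned direction with a call in the main fit or the alternative.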
